A study of Mus musculus with 15 samples.

Results

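Chromosomes 8 and 11 were described in 15 GAM libraries through the 40 kb windows that lie on them from 8 Mb onwards, leaving out the last 125 windows (5 Mb) of each chromosome. The rule used position only, and it gave 2969 windows on chromosome 8 (chr8:8000001-126760000) and 2722 on chromosome 11 (chr11:8000001-116880000), 5691 of the 68162 windows of the table, in mm9 coordinates. Windows of chromosome 8 are 5.34% and those of chromosome 11 are 4.89% of the windows of the 19 autosomes within the same limits. The comparator was the 49950 windows of the other 17 autosomes, limited in the same way. Each library holds the DNA of 1 nuclear profile, a thin cryosection through 1 nucleus, and its reads show which windows the section contained. The cells were 46C-ES cells of strain 129/Ola, a mouse embryonic stem cell line with a GFP reporter knocked in at Sox1, grown in serum with LIF and moved to serum-free medium before harvest. All 15 libraries share this line and treatment, all are of the set that did not pass quality control, and there is no treated or control group. The labels do not say whether the slices came from separate cultures, so p-values over libraries measure only the spread between these slices.

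Chromosomes 8 and 11 are autosomes known to be gained often when mouse embryonic stem cells are kept in culture, since cells with an extra copy tend to outgrow the others. A GAM slice samples a small part of each nucleus, so a chromosome is either missed, grazed or cut through its territory, and many slices are needed before detection averages over the nucleus. A call is 1 or 0 for a window, whatever the number of copies of that window in the slice. The line is inbred and the calls carry no allele, so the homologues cannot be told apart.

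The libraries differed widely, with from 14 positive windows in f13d5 to 2848 in f13e1 over the whole table. Libraries f13d5 and f14e1 had under 100 positive windows. Earlier work on these data named 3 pairs of libraries that share windows (f13a6 with f13e3, f14b5 with f14e5, and f14b5 with f14g3). On chromosomes 8 and 11 each of these pairs shared 0 windows. Few shared windows were possible there, since f14b5 had only 5 and 2 positive windows on chromosomes 8 and 11. Library f14g3 had 0 and 10, and f13e3 had 10 and 20. The lack of shared windows therefore does not tell whether these pairs differ here from the rest of the genome. The table holds calls without read counts, so the depth behind a call is unknown and no counting interval can be given for a window or a share.

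The windows detected in the most slices are shown first by their sequence. They were picked for recurrence and do not stand for positive windows in general. On chromosome 8 a single window, chr8:72960001-73000000, was positive in 4 libraries (f13a6, f13e5, f13g3 and f14g4), the most on either chromosome. It holds exons of Crtc1, a coactivator of CREB-driven transcription, and of Klhl26, a kelch-like family member. On chromosome 11 the most was 3 libraries, reached by 6 windows, and the first 3 by position are shown. These are chr11:53440001-53480000 with exons of Rad50, a DNA break repair protein, and of Il13, a cytokine, chr11:72160001-72200000 with exons of Tekt1, a tektin of cilia and flagella, and chr11:74200001-74240000 with exons of Rap1gap2, an activator of the GTPase activity of Rap1. Each line gives the 200 bases at the centre of the window (NCBI Build 37, plus strand), with CG dinucleotides in capitals. None of the 4 stretches overlaps an annotated exon, and the first and the last lie within Klhl26 and Rap1gap2.
chr8:72979901-72980100: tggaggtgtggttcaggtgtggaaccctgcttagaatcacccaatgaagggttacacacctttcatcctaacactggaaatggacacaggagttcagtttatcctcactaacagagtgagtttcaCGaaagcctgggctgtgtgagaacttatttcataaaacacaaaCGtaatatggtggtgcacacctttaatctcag
chr11:53459901-53460100: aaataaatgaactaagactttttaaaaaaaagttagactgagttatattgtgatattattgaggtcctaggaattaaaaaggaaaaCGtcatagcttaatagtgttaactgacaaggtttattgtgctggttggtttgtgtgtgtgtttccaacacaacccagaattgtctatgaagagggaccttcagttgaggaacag
chr11:72179901-72180100: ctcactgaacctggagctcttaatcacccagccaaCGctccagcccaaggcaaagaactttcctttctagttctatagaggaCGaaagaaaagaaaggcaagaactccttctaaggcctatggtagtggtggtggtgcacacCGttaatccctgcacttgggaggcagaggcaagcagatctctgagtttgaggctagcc
chr11:74219901-74220100: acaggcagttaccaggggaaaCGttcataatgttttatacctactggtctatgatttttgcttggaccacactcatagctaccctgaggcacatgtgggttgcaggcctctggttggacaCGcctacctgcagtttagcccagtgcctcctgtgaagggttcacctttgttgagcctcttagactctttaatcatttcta
The GC content of these 4 stretches was 44%, 34%, 50.5% and 47.5%, with 2, 1, 3 and 2 CG dinucleotides. None of the 4 windows holds unknown bases, and their own GC contents were 51.9%, 47.2%, 46.1% and 48.9%, against a mean of 42.4% over the windows of chromosome 8 and 43.5% over those of chromosome 11. Over the windows positive in at least 1 library the means were 42.7% and 43.1%.

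The coverage of chromosome 8, the percentage of its windows that were positive, ran from 0% to 12.4% between slices. The highest value was that of f14g4, with 369 of 2969 windows. Next came f13e1 with 164 windows (5.52%), f13g3 with 131 (4.41%), f13a6 with 113 (3.81%) and f13e5 with 77 (2.59%). Library f13g2 had 38 windows (1.28%) and f14c2 had 22 (0.741%). Libraries f13e3, f14e5, f14b5 and f14e1 had 10, 7, 5 and 2 windows. No window of chromosome 8 was positive in f13d5, f14f2, f14g3 or f14g6, and f14f2 is not a sparse library, since 1047 of its autosomal windows were positive within the limits. Chromosome 8 was thus seen broadly in a few slices and barely or not at all in 9, which had under 25 positive windows each.

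Chromosome 11 varied as widely, and f13e1, f13a6, f13g3 and f13e5 were among the most covered slices for both chromosomes. Its coverage was highest in f13e1, with 362 of 2722 windows (13.3%), followed by f14c2 with 216 (7.94%), f13a6 with 119 (4.37%), f13g3 with 80 (2.94%) and f13e5 with 54 (1.98%). Libraries f13e3, f14e5 and f14g3 had 20, 17 and 10 windows. Libraries f13g2 and f14f2 had 3 windows each and f14b5 had 2. A single window was positive in f13d5, f14e1 and f14g4, and none in f14g6. The slice with the most of chromosome 8, f14g4, was therefore among those with the least of chromosome 11, and f14c2 had 216 windows of chromosome 11 against 22 of chromosome 8.

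**Figure D1:**
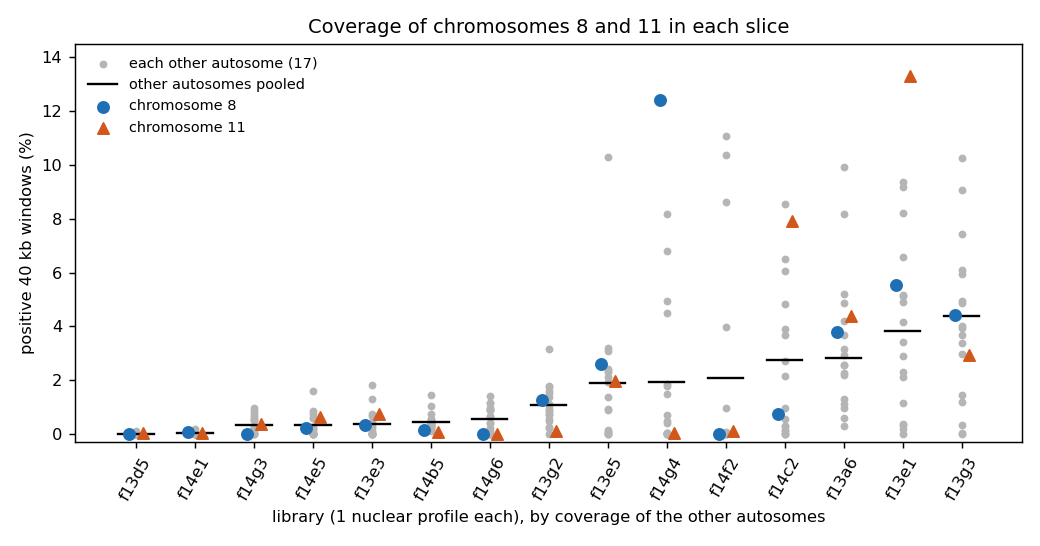
Percentage of positive 40 kb windows (y axis) in each of the 15 libraries (x axis, ordered by coverage of the other autosomes) for chromosome 8 (circles), chromosome 11 (triangles), each of the 17 other autosomes (grey points) and those 17 pooled (black line). Chromosome 8 stands above every grey point in f14g4 at 12.4%, and chromosome 11 does so in f13e1 at 13.3%.

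The first question was whether chromosomes 8 and 11 were detected more than the other autosomes of the same slice. Chromosome 8 was covered at 2.11% ± 3.40 (SD, n = 15) and the other autosomes pooled at 1.53% ± 1.42 (SD, n = 15). Chromosome 8 was above the other autosomes in 7 libraries and below them in 8. The mean difference was 0.579 percentage points, with a 95% interval from -0.603 to 2.15 (two-sided exact permutation test by sign flips, p = 0.677, Benjamini-Hochberg adjusted p = 0.956 over 11 tests). The spread of this difference between slices was 2.91 points (SD).

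Chromosome 11 was covered at 2.18% ± 3.79 (SD, n = 15). It was above the other autosomes in 9 libraries and below them in 6. The mean difference was 0.650 points, with an interval from -0.751 to 2.30, and the spread between slices was 2.98 points (SD; two-sided exact permutation test by sign flips, p = 0.487, adjusted p = 0.956). The medians of both chromosomes, 0.337% for chromosome 8 and 0.367% for chromosome 11, lay below the 1.08% of the other autosomes pooled. A single autosome is here set against a pool. Each of the 17, set against the rest of the 17, was above in 3 to 9 libraries, with a median of 6. The counts for chromosomes 8 and 11 were 7 and 9. Taken as 1 set of windows, the pair was covered at 2.14% ± 2.84 (SD, n = 15), a difference of 0.613 points (interval from -0.388 to 1.71, two-sided exact permutation test by sign flips, p = 0.295, adjusted p = 0.956). Both comparisons use the same 17 autosomes, so they are not independent.

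A single library carried much of each mean. Library f14g4 gave 39.3% of the summed coverage of chromosome 8, and without it the mean difference was -0.129 points (two-sided exact permutation test by sign flips, p = 0.646). Library f13e1 gave 40.7% of that of chromosome 11, and without it the mean difference was 0.0200 points (two-sided exact p = 0.975). Such a share is not particular to these chromosomes, because the highest library gave from 23.9% to 45.6% of the summed coverage of each of the other 17 autosomes, with a median of 37.2%. The highest coverages themselves, 12.4% for chromosome 8 and 13.3% for chromosome 11, were above those of the other 17 autosomes, at most 11.1%.

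Between the chromosomes, 11 was above 8 in 8 libraries, below it in 6 and equal in 1. The mean difference of 0.0711 points had an interval from -2.37 to 2.30 (two-sided exact permutation test by sign flips, p = 0.948, adjusted p = 0.956). Its sign turned without f13e1 (-0.479 points) and without f14c2 (-0.438 points). Both chromosomes were above the other autosomes in 4 libraries (f13a6, f13e1, f13e5 and f14e1), of which f14e1 had only 2 and 1 positive windows on them. Only chromosome 8 was above in 3 (f13g2, f13g3 and f14g4), only chromosome 11 in 5 (f13d5, f13e3, f14c2, f14e5 and f14g3), and neither in 3 (f14b5, f14f2 and f14g6). A positive window was present on both chromosomes in 11 libraries.

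Ordered by mean coverage, chromosome 11 took place 2 and chromosome 8 place 3 of the 19 autosomes, behind chromosome 2 at 2.25%. The other 17 autosomes ran from 0.642% to 2.25% with a median of 1.59%. Ordered by coverage within each slice, where place 1 is the most covered autosome, chromosome 8 had a mean place of 9.60 and chromosome 11 of 8.57, against 7.23 to 12.7 for the others, which put chromosome 11 at 3 and chromosome 8 at 8 of 19. Chromosome 8 was the most covered autosome in 1 library (f14g4) and chromosome 11 in 1 (f13e1). Chromosome 12 was so in 4 and chromosome 19 in 3. Chromosome 8 was without a positive window in 4 libraries and chromosome 11 in 1, within the range of 0 to 7 of the other autosomes. Chromosome 8 thus stood lower when each slice counted equally than by its mean coverage.

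Library names carry the prefix f13 (7 libraries) or f14 (8 libraries), whose meaning the labels do not give. Within the f13 libraries chromosome 8 differed from the other autosomes by 0.506 points (n = 7, two-sided exact permutation test by sign flips, p = 0.109), and within the f14 libraries by 0.643 points (n = 8, exact p = 0.992). Chromosome 11 differed by 1.29 points within f13 (n = 7, exact p = 0.516) and by 0.0855 points within f14 (n = 8, exact p = 0.945).

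In the slices with broad coverage, the calls lay in many separate stretches. A stretch is a run of adjacent positive windows. Chromosome 8 had 626 stretches over the 15 libraries, with a median of 9 and at most 202 (f14g4) per slice. Chromosome 11 had 601, with a median of 10 and at most 213 (f13e1). A single window made up 69.5% of the stretches on chromosome 8 and 69.1% of those on chromosome 11, against 74.9% of the 8129 stretches on the other autosomes. These shares pool the slices, and without f14g4 the share on chromosome 8 was 76.2%, above the 74.7% of the other autosomes. Without f13e1 the share on chromosome 11 was 73.2%, against 76.6%. In slices with a stretch, the mean length was from 1 to 1.83 windows on chromosome 8 (11 libraries) and from 1 to 3 windows on chromosome 11 (14 libraries). The longest value, 3 windows, belongs to f14f2, whose only stretch on chromosome 11 was chr11:101640001-101760000.

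The longest run of chromosome 8 was 10 windows (0.4 Mb) in f14g4, chr8:68720001-69120000. It overlaps March1, an E3 ubiquitin ligase, and Tktl2, a transketolase-like gene, with 3 protein-coding genes in all. The longest run of chromosome 11 was 8 windows (0.32 Mb) in f13e1, chr11:66320001-66640000, and it overlaps 1 protein-coding gene, Shisa6, a membrane protein that binds AMPA-type glutamate receptors. The longest run on the other autosomes was 14 windows.

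When positive windows were joined across up to 25 negative ones (1 Mb), the slices resolved into clusters. Chromosome 8 formed 15 clusters in f14g4, 16 in f13g3, 14 in f13a6, 10 in f13e1 and 20 in f13e5. The largest spanned 14 Mb in f14g4 (chr8:67720001-81720000), where 107 of 350 windows were positive. In the same slice a further cluster of 6.04 Mb lay at chr8:9840001-15880000, close to the start of the windows counted. Chromosome 11 formed 18 clusters in f13e1, 16 in f14c2, 13 in f13a6, 7 in f13g3 and 15 in f13e5. Its largest spanned 10.76 Mb in f14c2 (chr11:40320001-51080000), with 55 of 269 windows positive, and the next 9.52 Mb in f13e1 (chr11:91600001-101120000), with 51 of 238.

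From the first to the last positive window, chromosome 8 spanned 99.4 Mb in f14g4, 102 Mb in f13a6 and in f13g3, 84.8 Mb in f13e1 and 13.7 Mb in f14c2. Chromosome 11 spanned 108 Mb in f14c2, 93.1 Mb in f13e1, 65.2 Mb in f13a6 and 33.4 Mb in f13g3. Within a slice the calls were unevenly spread. Of the windows of chromosome 8 at chr8:8000001-37680000, f14g4 had 156 of 742 positive and f13e1 had none. At the far end, chr8:97040001-126760000, f14g4 had 11 of 743 and f13e1 had 66. Library f14c2 had its 22 windows of chromosome 8 all within the first of these regions. On chromosome 11, by contrast, f14c2 had from 48 to 65 positive windows in each of 4 regions of 680 or 681 windows. On chromosome 8 both f14g4 and f13e1 had calls in the regions between the ends. At chr8:37680001-67360000, f14g4 had 69 of 742 windows positive and f13e1 had 44. At chr8:67360001-97040000, f14g4 had 133 of 742 and f13e1 had 54.

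**Figure D2:**
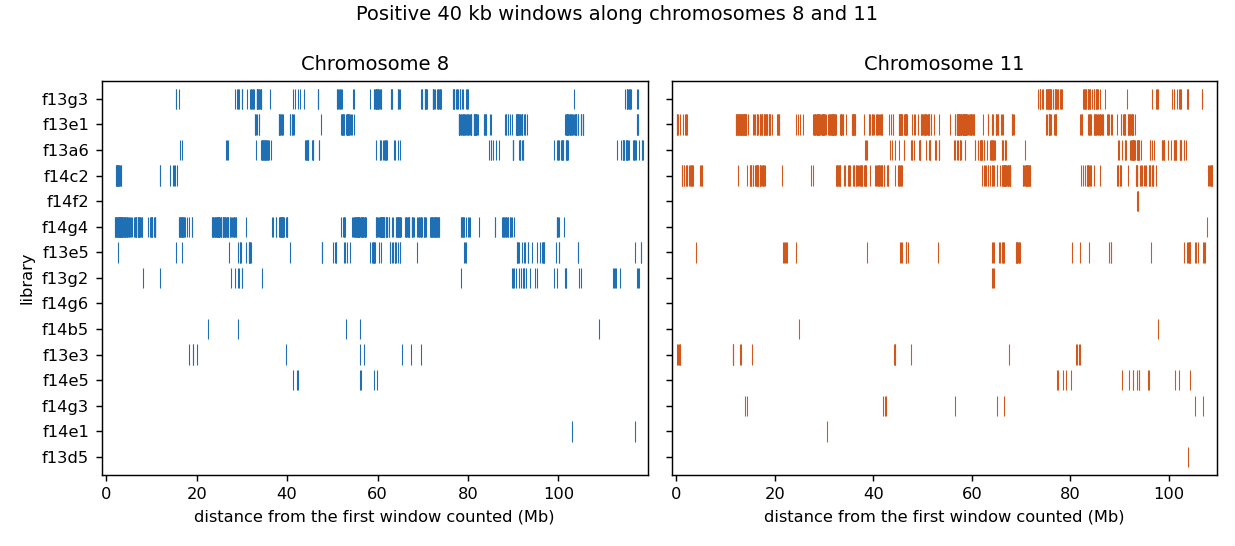
Each vertical line is a positive 40 kb window of chromosome 8 (left) or 11 (right), by library (y axis, most covered at the top) and distance in Mb from the first window counted (x axis). Library f14g4 has 369 lines on chromosome 8 and 1 on chromosome 11, and f14c2 has 22 and 216.

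The number of stretches per 1000 windows was 14.1 ± 19.7 (SD, n = 15) on chromosome 8 and 14.7 ± 23.6 (SD, n = 15) on chromosome 11, against 10.8 ± 9.15 (SD, n = 15) on the other autosomes. The difference was 3.21 for chromosome 8 (interval from -3.76 to 11.8, two-sided exact permutation test by sign flips, p = 0.582) and 3.87 for chromosome 11 (interval from -5.10 to 14.2, exact p = 0.478). The test separated neither difference from 0 (adjusted p = 0.956 for both). Mean stretch length was 1.26 windows on chromosome 8 and 1.27 on the other autosomes of the same 11 libraries, a difference of -0.00767 windows (interval from -0.0859 to 0.104, two-sided exact permutation test by sign flips, p = 0.956, adjusted p = 0.956). Stretches were shorter on chromosome 8 in 9 of these 11 libraries, and without f14g4 the difference was -0.0556 windows (n = 10, unadjusted two-sided exact p = 0.00586). A mean length cannot be under 1 window. Libraries f14b5, f14e1 and f14e5, with 5, 2 and 7 positive windows of chromosome 8, were at 1 and could only be equal or shorter there. This p-value includes these 3 libraries. The other libraries with a stretch on chromosome 8 had mean lengths above 1 window, from 1.09 (f13g2) to 1.83 (f14g4). Why stretches were shorter was not tested. On chromosome 11 the length was 1.33 against 1.27 windows in 14 libraries (difference 0.0536, interval from -0.100 to 0.253, two-sided exact permutation test by sign flips, p = 0.779, adjusted p = 0.956), and without f14f2 the difference was -0.0317 windows.

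**Figure D3:**
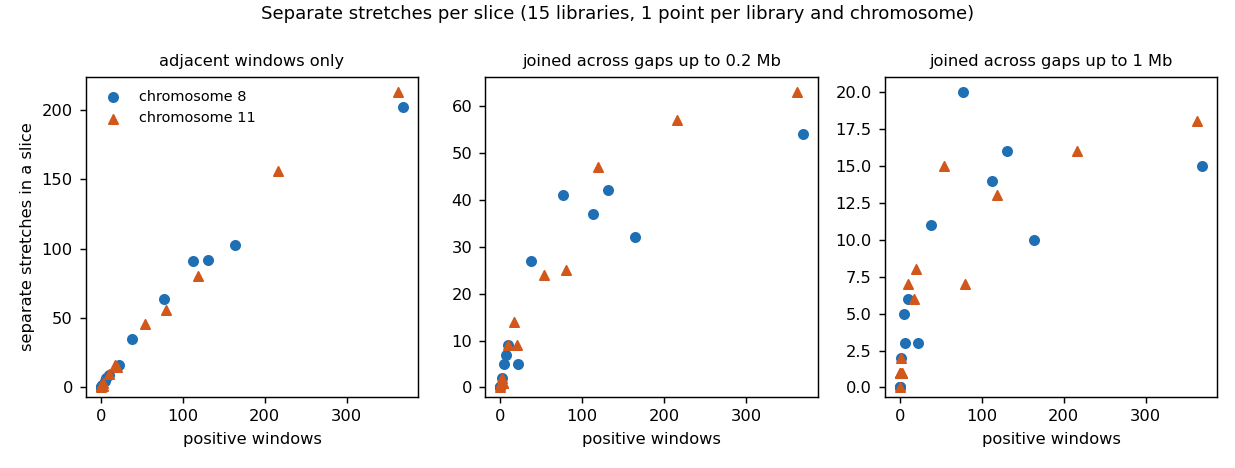
Number of separate stretches in a slice (y axis) against the number of positive windows of that chromosome (x axis), 1 point per library for chromosome 8 (circles) and chromosome 11 (triangles), with stretches formed from adjacent windows (left) or joined across gaps of up to 5 windows (middle) or 25 windows (right). With adjacent windows the number rises to 202 and 213, and joined across 25 windows it stays at 20 or below.

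Most positive windows of the pair were seen in 1 slice. At least 1 library was positive for 1609 of the 5691 windows (28.3%), against 21.4% of all windows of the 19 autosomes within the limits and 20.7% of those of the other 17. Of these, 1402 were positive in 1 library, 197 in 2 and 10 in 3 or more, and 4082 were positive in none. At least 2 libraries were positive for 3.64% of the windows, against 2.26% of all autosomal windows, and at least 3 for 0.176%, against 0.119%. The shares of the single chromosomes rested on few libraries. Without f14g4 the share of chromosome 8 positive in at least 1 library was 17.4% in place of 27.9%, below the 19.1% of the other 17 autosomes without that library. Without f13e1 that of chromosome 11 was 17.9% in place of 28.7%, against 17.5%. The share of the pair positive in at least 1 library stayed above that of the other 17 autosomes. It was 22.8% against 19.1% without f14g4, and 20.9% against 17.5% without f13e1. Without f14g4, at least 2 libraries were positive for 2.65% of the windows of the pair, against 1.73%. For the pair without f13e1, at least 2 libraries were positive for 1.88% of the windows (1.45% on the other 17 autosomes) and at least 3 for 0.0527% (0.0661%). Windows of a slice are not independent, and the shares were read as a description without a test. The pair of libraries that shared most on chromosome 8 was f13g3 with f14g4, at 20 windows, 15.3% of those of f13g3 and 5.42% of those of f14g4. Over all windows of chromosome 8, f14g4 covered 12.4% and f13g3 4.41%. On chromosome 11 it was f13e1 with f14c2, at 24 windows, 6.63% of those of f13e1 and 11.1% of those of f14c2. Over all windows of chromosome 11, f14c2 covered 7.94% and f13e1 13.3%. The shared percentages thus lay near the coverage of the partner library, and they were not tested.

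Chromosome 11 is the most gene-dense and the most GC-rich of the 19 autosomes within these limits. It has 13.4 protein-coding gene starts per Mb and a mean GC content of 43.5% ± 4.23 (SD over 2722 windows), against 8.46 starts per Mb and 41.7% ± 4.0 (SD over 49950 windows) on the other 17. Chromosome 8 has 8.43 starts per Mb and 42.4% ± 4.35 (SD over 2969 windows), place 9 for gene density and place 6 for GC content. Positive windows differed little from the rest in GC content, with a mean of 42.7% in windows of chromosome 8 positive in at least 1 library and 42.2% in those positive in none, and with 43.1% and 43.6% on chromosome 11. The direction varied between slices. On chromosome 11, positive windows were 2.17 percentage points richer in GC than the whole chromosome in f13a6 and 1.04 points poorer in f13e1 (mean difference coded positive minus all, -1.04). Weighting the other autosomes to the GC content of the chromosome described left the differences at 0.641 points for chromosome 8 (two-sided exact permutation test by sign flips, p = 0.619) and 0.643 points for chromosome 11 (exact p = 0.493). On chromosome 8, 107 windows hold unknown bases, and 2 of these were positive.

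Genes of 3 lists (pluripotency and early lineage, chromatin and transcription, cell cycle and survival) were located on the pair, to see which of these loci the slices caught. Of 30 listed genes, 28 lie within the limits, and Cbx2 and Birc5 do not. The window with the gene start was positive in at least 1 library for 5 of the 28 (17.9%), against 22.2% of 19353 protein-coding genes of all autosomes, 28.9% of 1001 on chromosome 8 and 30.0% of 1458 on chromosome 11. At least 1 window of the gene was positive for 15 of the 28, against 31.7% of the 19353 genes of all autosomes, 41.3% of those on chromosome 8 and 40.3% of those on chromosome 11. The listed genes overlapped a median of 2 windows each and the genes of all autosomes a median of 1, so the count for the lists is not on the same footing as these shares. All of these are counts over few loci, and no gene was tested. The loci are also not all separate. Ints2, Med13, Supt4h1, Vezf1, Msi2, Coil, Trim25 and Nog lie in 1 region, chr11:86024183-89163873, and none of their start windows was positive.

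Among 12 genes of pluripotency and early lineage choice, 2 had a positive start window. Stat3, the transcription factor through which LIF maintains self-renewal, starts in a window positive in f13a6, f13e1 and f14e5. Klf2, a Krüppel-like factor of the naive state, starts in a window positive in f14g4. Cdh1, which encodes E-cadherin, had a positive window in f14g4 and Sall1, a zinc-finger repressor, in f13e1, away from the start in both. Msi2, an RNA-binding protein, had positive windows in f13e5 and f14e5. No window of Zfp42 (Rex1), Irx3, Nog, Vezf1, Trim25, Sox9 or Axin2 was positive in any library.

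The window of the Stat3 start, chr11:100800001-100840000, is 1 of the 6 windows of chromosome 11 positive in 3 libraries. It also overlaps Ptrf, and it holds only the start end of Stat3, which spans chr11:100746412-100800854. A further one lies close by at chr11:100640001-100680000 and was positive in the same libraries f13a6, f13e1 and f14e5. That window overlaps Stat5b, which encodes a related STAT factor. Stat5b, Stat5a and Stat3 lie side by side at chr11:100642045-100800854. Of the 3 windows between, 2 were positive in f13a6 alone and 1 in none. Most of Stat3 lies in chr11:100720001-100760000, positive in no library, and chr11:100760001-100800000, positive in f13a6 alone. The Stat5b window was singled out after its values were seen.

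Among 8 genes of chromatin and transcription, 2 had a positive start window: Ctcf, the insulator protein, in f13e5 and Smarce1, a subunit of the BAF remodelling complex, in f13e1. Med13, of the Mediator kinase module, had a positive window in f13g3. Smarca5, Ints2, Supt4h1, Coil and Chd9 had none. Among 8 genes of cell cycle and survival, only the start of Junb, an AP-1 subunit, was in a positive window, in f13e5. Brca1 and Nf1, both tumour suppressors, had a positive window in f14c2, Top2a, the topoisomerase of dividing cells, in f13e1, Rbl2, of the retinoblastoma family, in f13a6, and Mcm5, of the replicative helicase, in f13e3. Neither window of Trp53, the p53 gene, was positive in any library.

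Whether these calls allow a statement on copy number was asked through the ratio of coverage to that of the other autosomes. If detection rose in proportion to copies, 3 copies in every cell in place of 2 would give a ratio of 1.5, and equal copies a ratio of 1. The ratio of sums over the 15 libraries was 1.38 for chromosome 8, with a 95% interval from 0.476 to 2.65, and 1.43 for chromosome 11, with an interval from 0.375 to 2.43 (intervals by inverting the exact sign-flip permutation test). Both intervals hold 1 and 1.5, and both reach below 0.5. For the pair together the ratio was 1.40, with an interval from 0.641 to 2.09, which again holds both values and does not reach 0.5.

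The ratio of a single slice says less. It ran from 0 to 6.40 (f14g4) on chromosome 8 and from 0 to 3.47 (f13e1) on chromosome 11. Without f14g4 the ratio of chromosome 8 was 0.914, and its interval, from 0.321 to 1.28, no longer held 1.5, so for chromosome 8 the position of 1.5 within the interval rested on that slice. Without f13e1 the ratio of chromosome 11 was 1.01, with an interval from 0.254 to 1.87. The same ratio for the other 17 autosomes ran from 0.403 to 1.54 with a median of 1.05, and 1 of them, chromosome 2, was at 1.5 or above and above both chromosomes.

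Chromosome X served as a yardstick, because the 46C line derives from E14tg2a, a male line, with a single X against pairs of autosomes. Its coverage of 1.46% ± 2.24 (SD, n = 15) was 0.953 times that of the 17 autosomes, with an interval from 0.166 to 1.61 that holds 0.5, 1 and 1.5 (exact sign-flip permutation test of the difference, two-sided p = 0.918, adjusted p = 0.956). Chromosome X was below the autosomes in 12 of 15 libraries, and without f14f2 the mean difference was -0.450 points (two-sided exact p = 0.0391, unadjusted). A chromosome that differs in copy number from the autosomes was therefore not separated from them by this measure in 15 slices. With calls of 1 or 0, no read depth, no allele and these intervals, the data allow no statement that chromosome 8 or 11 was gained, and none that it was present in the usual number of copies.

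**Figure D4:**
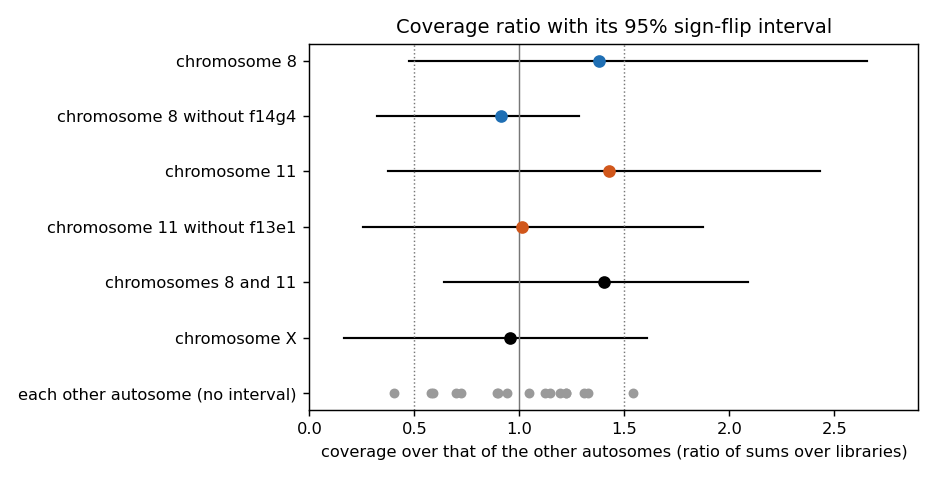
Ratio of coverage to that of the other autosomes, summed over libraries (x axis), with 95% sign-flip intervals (lines) for chromosomes 8, 11, both and X, and without the library that was highest on chromosome 8 or 11. Grey points are the 17 other autosomes. Solid and dotted vertical lines mark 1 and the ratios 0.5 and 1.5. The intervals with all libraries for 8 (0.476 to 2.65) and 11 (0.375 to 2.43) hold all 3 marks.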

How the data were processed

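The authors deposited 1 segregation table with a call of presence (1) or absence (0) for each 40 kb window in each of 15 libraries, used as deposited. The study's methods describe alignment to mm9 with Bowtie2 and window calling by GAMtools from a minimum read number, and do not state whether that minimum applied to these libraries. The submitters' processing notes name Bowtie2 2.1 and mm9. Chromosome lengths in the table equal those of NCBI Build 37, which gave GC content and sequences, and GENCODE gave genes. Depth is unknown, and the number of libraries limits the precision.

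The windows and gene lists were chosen with earlier results of these data known. Differences per library were tested with an exact two-sided sign-flip permutation test over all 32768 sign patterns, which takes differences as symmetric, with Benjamini-Hochberg adjustment over 11 tests at 0.05. Intervals hold the values that the test does not reject. The ratio divides summed positive windows by those expected from the other autosomes. The test was also run on simulated libraries with a known ratio and a comparator without noise, a simpler setting than these slices. Alternatives changed the windows, libraries, scale, comparator and joining of stretches. Named sites were the windows positive in the most libraries (at most 3 per chromosome), the longest stretch and the listed genes, of which 1 is counted but not reported here by name. Python 3.11.15, numpy 2.4.6, pandas 2.3.3 and matplotlib 3.10.9 were used.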

Additional observations from a re-analysis of the deposited data

How the results depend on the processing

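The coverage differences of chromosomes 8 and 11 from the other autosomes kept their sign, and p stayed above 0.05, under 11 of 12 alternatives each, with two-sided exact p from 0.0676 to 0.992 for chromosome 8 and from 0.185 to 0.945 for chromosome 11 over all 12. The exception was the log2 ratio with libraries weighted equally and a pseudocount of 1 window, which was -0.85 for chromosome 8, -0.78 for chromosome 11 and -0.50 for both. The same log2 ratio was below 0 for 16 of the other 17 autosomes (from -2.48 to 0.15), and it was -1.53 for chromosome X (p = 0.00714), a setting chosen after seeing the data, with 4 autosomes lower. Against the median of the other autosomes the pair differed by 1.13 points (p = 0.0484); that median lies on average 0.517 points below their pooled coverage, which raises any difference from it. Chromosome 11 minus chromosome 8 was -0.0558 points without the 5 libraries of pairs that share windows and -0.557 points within f14; the cause was not tested.

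With each replicate left out in turn, the coverage difference ranged from -0.129 (without f14g4) to 0.769 points for chromosome 8, from 0.0200 to 0.838 for chromosome 11, from 0.270 to 0.802 for both, from -0.479 to 0.961 for 11 minus 8, and from -0.450 (without f14f2) to 0.0600 (without f14g4) for X. Stretches per 1000 windows differed by -0.400 (without f14g4) to 4.45 for chromosome 8, by 0.262 to 5.14 for chromosome 11 and by 1.51 to 4.58 for both. Mean stretch length differed by -0.0556 to 0.00691, by -0.0317 to 0.0850 and by 0.0181 to 0.115 windows.

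The sign of the stretch length difference was not stable. For chromosome 8 it was 0.266 and 0.872 windows when stretches were joined across 5 and 25 negative windows, 0.00156 in libraries with 100 or more positive windows and 0.0192 without the 5 libraries of pairs. For chromosome 11 it was -0.213 and -3.96 with these joins, and for both -0.236 with the join across 5. The cause was not tested. Chromosomes were compared within each slice, and with 1 group of libraries there were no replicate numbers to pair between groups. The shares given without f14g4 or f13e1 for windows positive in several libraries and for single-window stretches were chosen after seeing the data.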
